A study of Mus musculus with 14 samples.

Results

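The genes examined here are type I interferon stimulated genes, the antiviral and inflammatory program that cells switch on when interferon reaches them. They comprise 49 members taken by gene symbol from the deposited table of 46904 genes. All 49 were listed, and all 49 were above 0 in at least 2 libraries, the filter that left 46102 genes for testing. RNA came from whole contralateral (CL, uninjured) and ischemic (MCAO) brain hemispheres, collected 48 h after middle cerebral artery occlusion of 20 min. The mice were 12-week-old males on a C57BL/6J background, either wild type (*Cort*+/+) or deficient in the gene of cortistatin (*Cort*-/-), a neuropeptide with immunomodulatory actions. The groups were *Cort*+/+ CL (3 libraries, replicates 1 to 3), *Cort*+/+ MCAO (3 libraries, replicates 2 to 4), *Cort*-/- CL (3 libraries, replicates 1 to 3) and *Cort*-/- MCAO (5 libraries, replicates 1 to 5), and per-library values below follow that replicate order. *Cort*+/+ MCAO replicates 1 and 5 were not analysed here, so 3 of 5 replicates of that group enter every comparison with it. Whether CL and MCAO libraries of the same number come from the same mouse is not given in the sources used here. The methods describe the replicates as biologically independent, and say that in comparisons with large variability only clearly grouped replicates were kept. The CL hemisphere is the other side of a brain that underwent surgery, and hemispheres of unoperated mice were not analysed here.

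Type I interferons signal through the receptor pair IFNAR1 and IFNAR2 and the kinases JAK1 and TYK2. The kinases activate STAT proteins, among them STAT2, which joins IRF9 in a complex that binds the interferon-stimulated response element (ISRE) near the start of target genes. The products sense foreign or misplaced nucleic acids, degrade RNA, stop translation, tag proteins with ISG15 and block viral entry. In the brain, microglia, astrocytes, endothelial cells and infiltrating myeloid cells can all run the program, also without infection.

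The labels and libraries were checked first. *Cort* was at 2.61 to 5.68 RPKM in the *Cort*+/+ libraries and at 0 to 0.136 RPKM (at most 4 reads) in the *Cort*-/- libraries. Recovered depth was 25989673 to 43032291 reads per library, and a member had between 1 and 3627 reads in a library. In 12 of 49 members at least 1 CL library held fewer than 10 reads. Neuronal markers summed to 1780 to 2390 RPKM and oligodendrocyte markers to 881 to 1150 RPKM in every library, as in brain tissue.

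Sequence near the transcript start was examined because members that move together may carry a common element. RefSeq windows of GRCm38.p6, from 250 bases before to 50 bases after the start, were found for 37 of 49 members. The core searched on both strands was GAAA, any 2 bases, GAAA, and matches may overlap. It was present in 18 of 37 members (48.6%), against 1079 of 27025 genes with a window (3.99%). The 18 members with a match had a median log2 fold change of 1.62 with MCAO (mean of both genotypes), and the 19 without a match a median of 1.07. Of these, 15 of 18 and 16 of 19 passed the test described below. *Irf7* and *Oasl2*, among the members of largest change, had no match in these windows. The stretches below show where the core lies before the start in the members whose values are given by library, and capitals mark the core on either strand. *Ifit1* and *Bst2*, both of large change, were added after their values were seen. The matches of *Ifih1* and *Ifitm3* lie past the start and are not printed.
Isg15: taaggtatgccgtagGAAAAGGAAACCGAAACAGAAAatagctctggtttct
Ifit1: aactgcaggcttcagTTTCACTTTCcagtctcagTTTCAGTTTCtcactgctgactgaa
Ifit3: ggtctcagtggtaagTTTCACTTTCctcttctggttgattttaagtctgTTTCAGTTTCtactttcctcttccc
Ifit3b: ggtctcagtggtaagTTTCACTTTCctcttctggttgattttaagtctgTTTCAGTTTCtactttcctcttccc
Oas1a: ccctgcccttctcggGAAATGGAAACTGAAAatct
Bst2: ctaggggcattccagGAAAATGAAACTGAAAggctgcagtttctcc
Stat2: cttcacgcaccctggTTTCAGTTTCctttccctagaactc
Ifitm2: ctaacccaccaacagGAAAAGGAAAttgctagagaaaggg
Slfn5: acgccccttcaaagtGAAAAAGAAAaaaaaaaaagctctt

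The stretch of *Isg15* is chr4:156200860-156200911 on the minus strand and holds 3 overlapping matches within 78 bases of the start. That of *Ifit1* is chr19:34640770-34640828 on the plus strand, with matches beginning 104 and 85 bases before the start. The stretches of *Ifit3* (chr19:34583358-34583431) and *Ifit3b* (chr19:34607754-34607827), both on the plus strand, are identical letter for letter. *Ifit3* and *Ifit3b* are near-identical copies, so reads may have been split between them and their separate levels are uncertain. *Oas1a* (chr5:120907526-120907560, minus strand) and *Bst2* (chr8:71537572-71537617, minus strand) each have 2 overlapping matches. *Stat2* (chr10:128270261-128270300, plus strand) has a single match 222 bases before the start, *Ifitm2* (chr7:140955983-140956022, minus strand) 1 at 46 bases and *Slfn5* (chr11:82951932-82951971, plus strand) 1 at 155 bases. A match is a description of the letters and not a binding site.

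The first question was whether the program differs between the ischemic and the uninjured hemisphere. Levels were compared with limma on log2(RPKM + 0.1), and fold changes below are on that scale. Averaged over both genotypes, all 49 members were higher in the MCAO hemispheres, and 42 of 49 rose at a Benjamini-Hochberg adjusted p under 0.05, against 2.52% of all genes tested that were called higher. The median log2 fold change of the members was 1.49 (range 0.16 to 2.94), while the median over all genes was 0.00. The 7 members that did not pass were *Isg20*, *Mx2*, *Ifitm2*, *Cmpk2*, *Stat2*, *Irf9* and *Oas3*, with adjusted p from 0.0616 to 0.247. Leaving out a library gave between 28 and 47 called members, against 2.07% to 4.18% of all genes called in either direction.

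Within *Cort*-/- mice 49 of 49 members were higher and 23 passed the test, against 1.34% of all genes called higher, with a median of 1.68. That count was sensitive to single libraries. It was 0 without *Cort*-/- CL 1 or *Cort*-/- CL 3, 1 without *Cort*-/- CL 2, and 2 without *Cort*-/- MCAO 1, 4 or 5. It was 14 without *Cort*-/- MCAO 2 and 45 without *Cort*-/- MCAO 3. Since all 4 groups share a variance estimate, libraries of the other genotype also moved it, to 14 without *Cort*+/+ CL 2, 15 without *Cort*+/+ CL 3, 13 without *Cort*+/+ MCAO 2 and 40 without *Cort*+/+ MCAO 3. The share of all genes called, in either direction, moved too and was 1.72% with all libraries. It was 0.291% without *Cort*-/- CL 1, 0.705% without *Cort*-/- CL 2 and 0.326% without *Cort*-/- CL 3. Without *Cort*-/- MCAO 3 it was 2.61%. A pseudocount of 1 RPKM left 3 members (1.18% of all genes), and a filter on mean RPKM of at least 0.5 gave 38 of 46 (7.38%). All 49 stayed higher each time a library was left out.

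Within *Cort*+/+ mice 49 of 49 members were also higher, with a median of 1.25, but 0 of 49 passed, against 0.00868% of all genes called higher. At an unadjusted p under 0.05 there were 38 of 49 members, against 4.88% of all genes higher at that p. Limma voom on the recovered reads called 0, with 43 at that unadjusted p against 6.18% of all genes. The lowest adjusted p of a member was 0.272 on the RPKM values, 0.134 by voom, and between 0.0599 (without *Cort*+/+ MCAO 4) and 0.613 (without *Cort*+/+ MCAO 3) when a library was left out. The median was 0.66 without *Cort*+/+ MCAO 3, the library with the highest members of that group, and 47 of 49 members were then above 0, with 13 of 49 at an unadjusted p under 0.05 (3.9% of all genes).

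Without any model, every *Cort*+/+ MCAO library lay above every *Cort*+/+ CL library for 34 of 49 members, against 5.73% of all genes. The same held in *Cort*-/- mice for 43 of 49 members, against 4.85% of all genes. A total of 32 members were separated in both genotypes, which can hold for at most 4.85% of all genes.

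**Figure D1:**
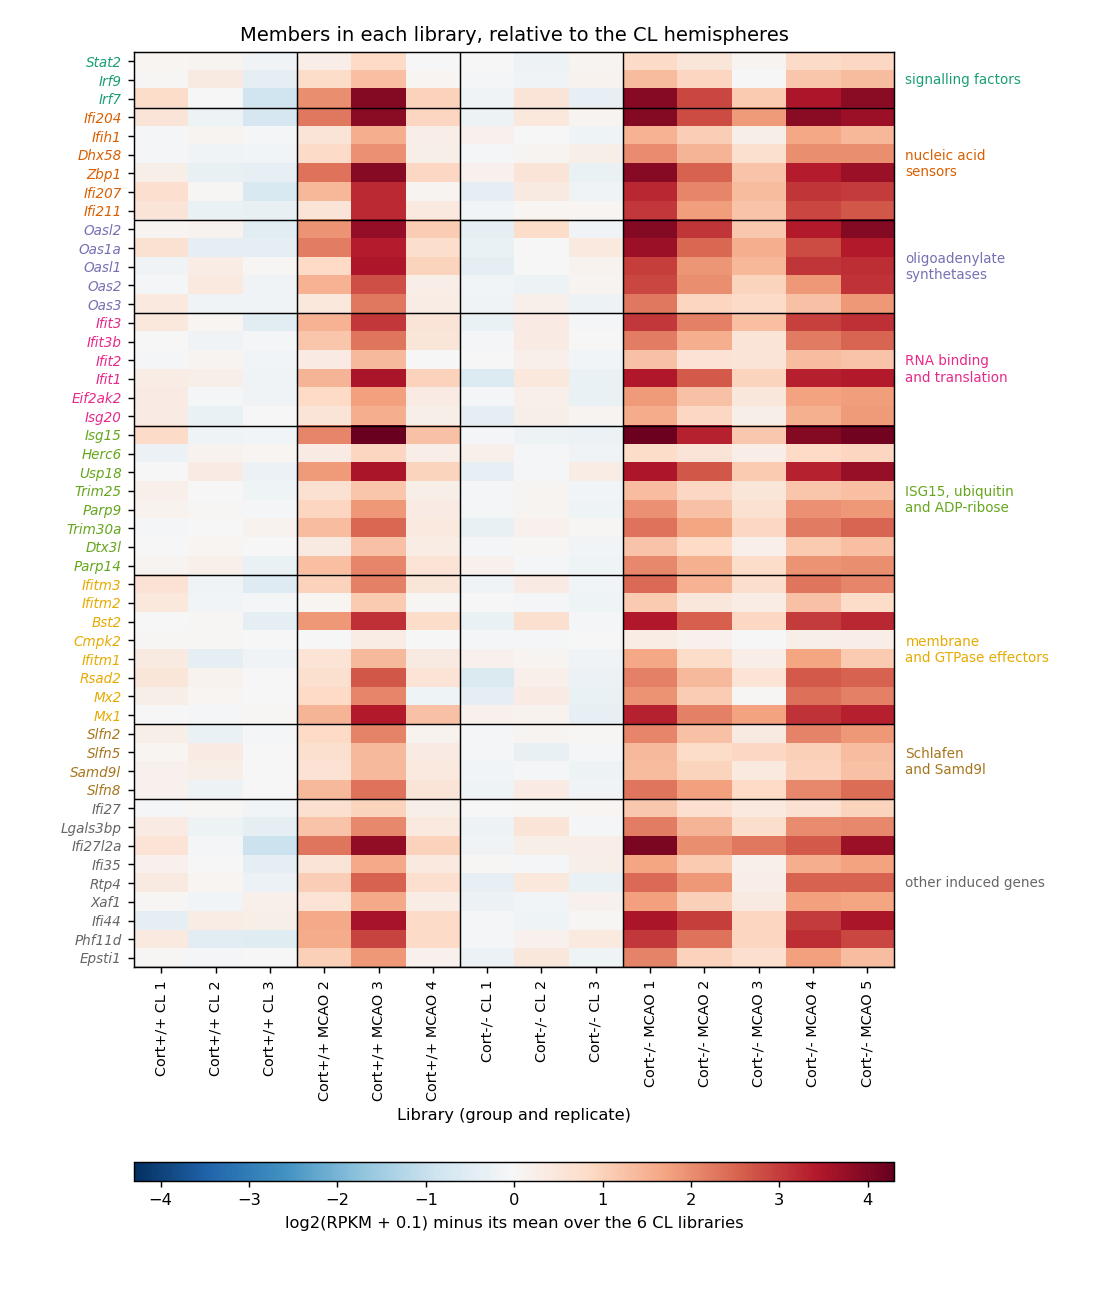
Each row is a member and each column a library, and colour gives log2(RPKM + 0.1) minus the mean of that member over the 6 CL libraries. Rows are grouped by role, and nearly all members are redder in the MCAO columns, palest in Cort+/+ MCAO 4 and Cort-/- MCAO 3, and as dark in Cort+/+ MCAO 3 as in Cort-/- MCAO 1.

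The signalling factors of the pathway itself are *Stat2* and *Irf9*, partners in the ISRE-binding complex, and *Irf7*, the factor that amplifies interferon production. All 3 were higher after MCAO, and 1 of 3 passed in the mean of both genotypes. *Irf7* (ENSMUSG00000025498, chr7:140842619-140846398, GRCm39, minus strand) was at 1.15, 0.628 and 0.302 RPKM in *Cort*+/+ CL and at 2.79, 11.0 and 1.35 RPKM in *Cort*+/+ MCAO hemispheres. In *Cort*-/- mice it was at 0.545, 0.968 and 0.465 RPKM in CL and at 10.7, 5.24, 1.47, 8.0 and 10.5 RPKM in MCAO hemispheres. No MCAO library overlapped the CL libraries of its genotype, although *Cort*+/+ MCAO 4 and *Cort*-/- MCAO 3 stood close to them. *Irf7* rose by a log2 fold change of 2.68 (SE 0.52, adjusted p = 0.0132) in the mean comparison. The change was 3.04 (SE 0.70, adjusted p = 0.0474) in *Cort*-/- and 2.33 (SE 0.78, adjusted p = 0.397) in *Cort*+/+ mice.

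*Stat2* was at 7.24, 7.38 and 6.14 RPKM in *Cort*+/+ CL, at 8.36, 12.5 and 6.69 RPKM in *Cort*+/+ MCAO, at 6.87, 5.88 and 7.37 RPKM in *Cort*-/- CL and at 12.1, 9.86, 7.42, 12.0 and 12.6 RPKM in *Cort*-/- MCAO hemispheres. *Cort*+/+ MCAO 4 lay within the CL range. *Irf9* was at 3.97, 5.15 and 2.88 RPKM and 6.77, 9.65 and 4.13 RPKM in *Cort*+/+ CL and MCAO, and at 3.73, 3.51 and 4.36 RPKM and 10.1, 7.4, 3.88, 9.01 and 10 RPKM in *Cort*-/- CL and MCAO hemispheres. Log2 fold changes in the mean comparison were 0.51 (SE 0.15, adjusted p = 0.0855) for *Stat2* and 0.85 (SE 0.24, adjusted p = 0.0777) for *Irf9*.

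The nucleic acid sensors recognise viral or misplaced RNA and DNA. All 6 rose in the mean comparison (6 of 6 called, median 1.97), and 1 of 6 passed in *Cort*-/- mice. *Ifi204*, a DNA sensor of the interferon-inducible p200 family, was at 0.288, 0.126 and 0.0584 RPKM in *Cort*+/+ CL and at 1.17, 3.80 and 0.394 RPKM in *Cort*+/+ MCAO hemispheres. In *Cort*-/- mice it was at 0.126, 0.262 and 0.188 RPKM in CL and at 3.95, 1.75, 0.824, 3.74 and 3.25 RPKM in MCAO hemispheres. Its log2 fold change of 2.79 (SE 0.46, adjusted p = 0.00587) was a fold of 6.93 and the second largest of the members with a mean of at least 1 RPKM. Its relatives *Ifi207* and *Ifi211* had changes of 2.07 and 1.86, and because these genes are similar in sequence their separate levels are uncertain.

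*Ifih1*, which encodes the RNA sensor MDA5, was at 0.756, 0.862 and 0.764 RPKM in *Cort*+/+ CL, at 1.20, 2.53 and 0.992 RPKM in *Cort*+/+ MCAO, at 0.901, 0.770 and 0.689 RPKM in *Cort*-/- CL and at 2.40, 1.75, 0.948, 2.74 and 2.31 RPKM in *Cort*-/- MCAO hemispheres. It rose by 1.00 on the log2 scale (SE 0.24, adjusted p = 0.0374) in the mean comparison, with no overlap between hemispheres in either genotype. *Dhx58* (LGP2, a regulator of RNA sensing) rose by 1.33, and *Zbp1*, a sensor of Z-form nucleic acids that can trigger necroptosis, rose by 2.66 from a CL level of at most 0.181 RPKM.

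**Figure D2:**
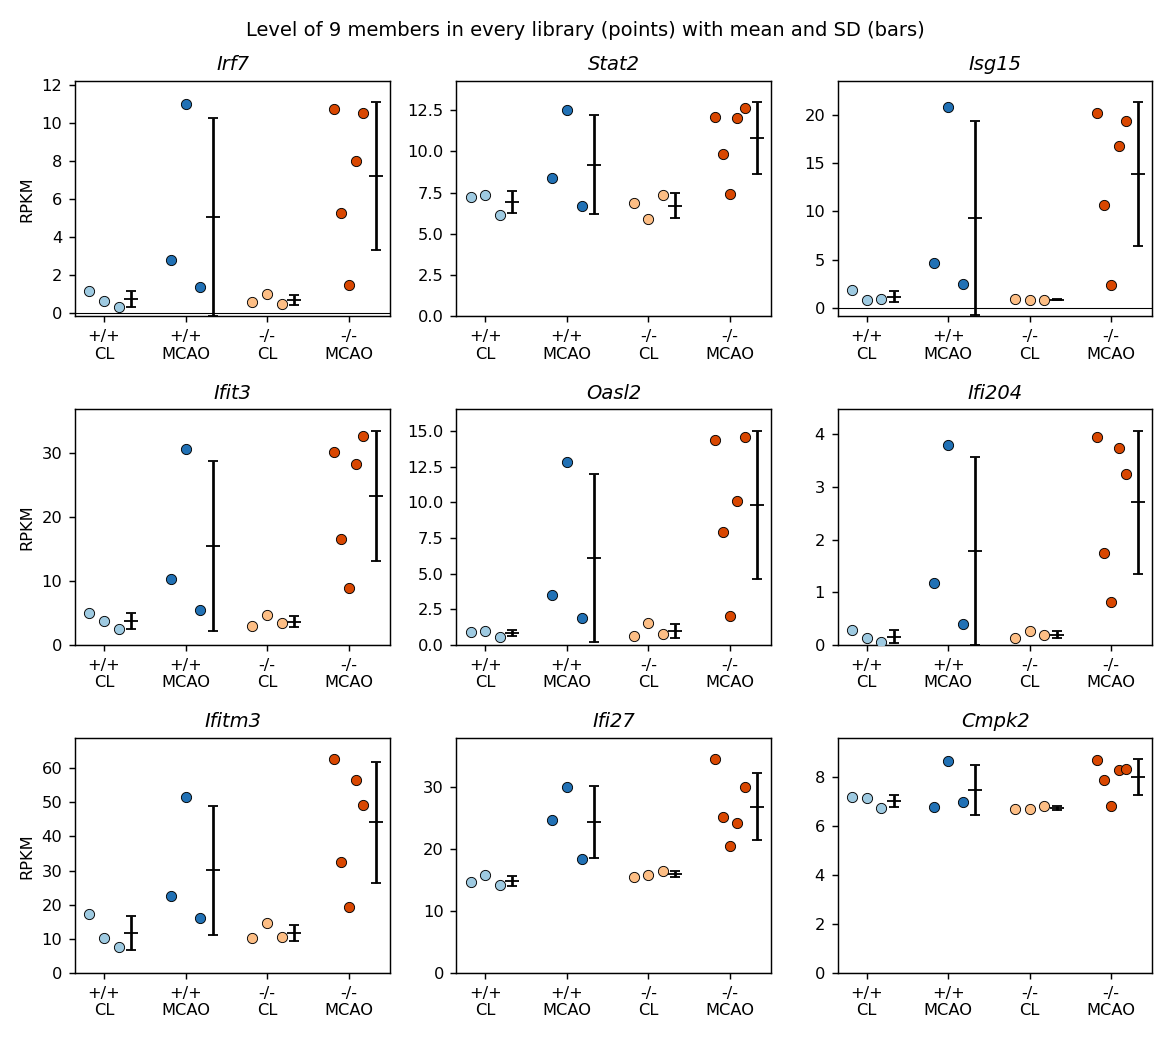
RPKM of 9 members in each library, with the group mean and SD beside the points (n = 3, 3, 3 and 5). For Irf7, Isg15, Oasl2 and Ifi204 the points of the MCAO groups overlap over most of their range and the SD of Cort+/+ MCAO reaches near or below 0 because 1 of 3 libraries is high, while Cmpk2 stays between 6.68 and 8.67 RPKM.

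The oligoadenylate synthetases make the second messenger that activates RNase L, and the OAS-like genes are their relatives. Of 5 members 4 rose in the mean comparison (median 2.13), and 3 of 5 passed in *Cort*-/- mice. *Oasl2* was at 0.935, 0.944 and 0.575 RPKM in *Cort*+/+ CL and at 3.51, 12.8 and 1.90 RPKM in *Cort*+/+ MCAO hemispheres. In *Cort*-/- mice it was at 0.613, 1.53 and 0.761 RPKM in CL and at 14.4, 7.91, 2.01, 10.1 and 14.6 RPKM in MCAO hemispheres. The log2 fold change was 2.68 (SE 0.49, adjusted p = 0.00908). All MCAO libraries were above the CL libraries of the same genotype.

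*Oas1a* was at 0.322, 0.107 and 0.0995 RPKM in *Cort*+/+ CL, at 1.14, 2.70 and 0.360 RPKM in *Cort*+/+ MCAO, at 0.123, 0.175 and 0.262 RPKM in *Cort*-/- CL and at 3.34, 1.39, 0.703, 1.80 and 2.75 RPKM in *Cort*-/- MCAO hemispheres. It rose by 2.45 (SE 0.41, adjusted p = 0.00665) on the log2 scale. *Oas3* and *Oas2* are among the 3 members with a mean under 0.5 RPKM. *Oas3* ranged from 0.00654 to 0.493 RPKM and *Oas2* from 0.0683 to 1.59 RPKM, and the remaining low member, *Ifi211*, from 0.0150 to 1.22 RPKM. The lowest values of *Ifi211* and *Oas3* rest on 1 read each.

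The RNA-binding and translational effectors include the IFIT proteins, which bind foreign 5' ends of RNA, the kinase PKR (*Eif2ak2*) and the exonuclease ISG20. Of 6 members 5 rose in the mean comparison (median 1.39), and 3 of 6 passed in *Cort*-/- mice. *Ifit3* was the highest of them by level, at 4.96, 3.81 and 2.53 RPKM in *Cort*+/+ CL and at 10.3, 30.5 and 5.41 RPKM in *Cort*+/+ MCAO hemispheres. In *Cort*-/- mice it was at 2.91, 4.62 and 3.43 RPKM in CL and at 30.1, 16.5, 8.91, 28.2 and 32.6 RPKM in MCAO hemispheres. The groups of each genotype did not overlap. The log2 fold change was 2.10 (SE 0.38, adjusted p = 0.00926) in the mean, 2.52 (SE 0.51, adjusted p = 0.0293) in *Cort*-/- and 1.69 (SE 0.57, adjusted p = 0.404) in *Cort*+/+ mice.

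*Ifit3b*, the copy that shares the stretch printed above, had a mean of 1.88 ± 0.104 RPKM (SD, n = 3) in *Cort*+/+ CL, 5.92 ± 3.76 RPKM (SD, n = 3) in *Cort*+/+ MCAO, 2.12 ± 0.369 RPKM (SD, n = 3) in *Cort*-/- CL and 8.0 ± 3.5 RPKM (SD, n = 5) in *Cort*-/- MCAO hemispheres. By library its CL values were 1.96, 1.76 and 1.93 RPKM in *Cort*+/+ and 1.86, 2.54 and 1.96 RPKM in *Cort*-/- mice. Its MCAO values were 4.70, 10.1 and 2.92 RPKM in *Cort*+/+ and 9.56, 6.01, 2.99, 9.61 and 11.8 RPKM in *Cort*-/- mice, with no overlap in either genotype. It rose by 1.58 on the log2 scale (SE 0.31, adjusted p = 0.0144). *Ifit1* rose by 2.38 and *Eif2ak2* by 1.20. *Ifit2*, which was already near 3 RPKM in the CL hemispheres (2.96 to 3.73 RPKM), rose by only 0.80 and sat at the threshold (adjusted p = 0.0496).

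ISG15 is a ubiquitin-like tag, USP18 removes it and also damps the receptor, HERC6 attaches it in mice, and PARP9, PARP14, DTX3L and the TRIM proteins belong to ADP-ribose and ubiquitin signalling. All 8 members of this group rose in the mean comparison (median 1.39), 6 of 8 passed in *Cort*-/- mice, and the hemispheres did not overlap for 8 of 8 in either genotype. *Isg15* (ENSMUSG00000035692, chr4:156283883-156285303, GRCm39, minus strand) had the largest change of all 49 members in the mean comparison and in *Cort*-/- mice. In *Cort*+/+ mice the largest was that of *Zbp1* (2.52). It was at 1.84, 0.864 and 0.915 RPKM in *Cort*+/+ CL and at 4.67, 20.8 and 2.53 RPKM in *Cort*+/+ MCAO hemispheres. In *Cort*-/- mice it was at 0.949, 0.855 and 0.835 RPKM in CL and at 20.2, 10.7, 2.37, 16.8 and 19.4 RPKM in MCAO hemispheres. Thus *Cort*+/+ MCAO 3 held the highest value of any library, while the other *Cort*+/+ MCAO libraries were below all *Cort*-/- MCAO libraries except replicate 3. The log2 fold change was 2.94 (SE 0.53, 7.70-fold, adjusted p = 0.00842) in the mean, 3.52 (SE 0.70, 11.5-fold, adjusted p = 0.0277) in *Cort*-/- and 2.37 (SE 0.79, 5.17-fold, adjusted p = 0.394) in *Cort*+/+ mice.

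*Usp18* was at 0.389, 0.522 and 0.303 RPKM in *Cort*+/+ CL, at 1.62, 5.38 and 0.839 RPKM in *Cort*+/+ MCAO, at 0.278, 0.357 and 0.506 RPKM in *Cort*-/- CL and at 5.28, 2.98, 0.962, 4.66 and 6.42 RPKM in *Cort*-/- MCAO hemispheres. It rose by 2.48 on the log2 scale (SE 0.44, adjusted p = 0.00812). *Herc6* changed far less, by 0.60 (SE 0.13, adjusted p = 0.0258). Its CL values were 1.84, 2.50 and 2.37 RPKM in *Cort*+/+ and 2.62, 2.17 and 2.01 RPKM in *Cort*-/- mice, and its MCAO values were 2.88, 4.31 and 2.73 RPKM and 3.96, 3.34, 2.72, 4.14 and 4.34 RPKM.

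The membrane and GTPase effectors act on viral entry, budding and nucleic acid supply. Of 8 members 5 rose in the mean comparison (median 1.37), and 2 of 8 passed in *Cort*-/- mice. *Ifitm3*, which blocks fusion of viruses with the endosome, had the highest level of all members, a mean of 27.2 RPKM over the 14 libraries. It was at 17.4, 10.2 and 7.79 RPKM in *Cort*+/+ CL, at 22.6, 51.4 and 16.2 RPKM in *Cort*+/+ MCAO, at 10.2, 14.6 and 10.5 RPKM in *Cort*-/- CL and at 62.4, 32.5, 19.5, 56.5 and 49.2 RPKM in *Cort*-/- MCAO hemispheres. *Cort*+/+ MCAO 4 fell below *Cort*+/+ CL 1, and no libraries overlapped in *Cort*-/- mice. The log2 fold change was 1.52 (SE 0.31, adjusted p = 0.0177).

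*Ifitm2* was at 14.4, 9.58 and 9.86 RPKM and 10.9, 22.8 and 10.8 RPKM in *Cort*+/+ CL and MCAO, and at 10.4, 9.87 and 9.05 RPKM and 23.0, 14.5, 12.9, 25.2 and 18.2 RPKM in *Cort*-/- CL and MCAO hemispheres. Its log2 fold change was 0.61 (SE 0.20, adjusted p = 0.138). The difference of the change between genotypes was 0.56 (SE 0.40, unadjusted p = 0.179, adjusted p = 1.00 by limma). *Cmpk2*, a mitochondrial nucleotide kinase, was nearly flat, at 7.17, 7.15 and 6.75 RPKM and 6.76, 8.63 and 6.99 RPKM in *Cort*+/+ CL and MCAO, and at 6.68, 6.68 and 6.83 RPKM and 8.67, 7.88, 6.82, 8.30 and 8.32 RPKM in *Cort*-/- CL and MCAO hemispheres. Its log2 fold change was the smallest of all members, 0.16 (95% interval 0.02 to 0.30, adjusted p = 0.247). *Rsad2* (viperin), the gene beside *Cmpk2* on chromosome 12 (chr12:26492745-26506451 and chr12:26519203-26529836, GRCm39, opposite strands), rose by 1.59 (SE 0.39, adjusted p = 0.0423). *Bst2* (tetherin, which holds budding virus at the membrane) rose by 2.28 and the dynamin-like GTPase *Mx1* by 2.39, while *Mx2* did not pass (1.22, adjusted p = 0.139).

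The Schlafen genes and *Samd9l* restrict translation and cell proliferation. All 4 rose in the mean comparison (median 1.12), and 3 of 4 passed in *Cort*-/- mice. *Slfn2* was at 1.11, 0.730 and 0.886 RPKM in *Cort*+/+ CL, at 1.75, 4.30 and 1.03 RPKM in *Cort*+/+ MCAO, at 0.854, 0.994 and 0.947 RPKM in *Cort*-/- CL and at 4.21, 2.30, 1.23, 4.39 and 3.62 RPKM in *Cort*-/- MCAO hemispheres. It rose by 1.3 on the log2 scale (SE 0.32, adjusted p = 0.0444). *Slfn5* rose by 0.95 (SE 0.16, adjusted p = 0.0065) and *Samd9l* by 0.90 (SE 0.17, adjusted p = 0.011).

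*Slfn5* and *Samd9l* had the lowest and the third lowest interaction p of the members with a mean of at least 1 RPKM. *Slfn5* was at 0.986, 1.19 and 0.910 RPKM and 1.54, 2.61 and 1.21 RPKM in *Cort*+/+ CL and MCAO, and at 0.894, 0.708 and 0.890 RPKM and 2.55, 1.65, 1.79, 1.96 and 2.44 RPKM in *Cort*-/- CL and MCAO hemispheres. *Samd9l* was at 0.967, 1.03 and 0.820 RPKM and 1.34, 2.36 and 1.15 RPKM in *Cort*+/+ CL and MCAO, and at 0.773, 0.779 and 0.718 RPKM and 2.30, 1.72, 1.16, 1.77 and 2.13 RPKM in *Cort*-/- CL and MCAO hemispheres. In both genes the MCAO libraries lay above the CL libraries of their genotype. In both, every *Cort*-/- CL library also lay below every *Cort*+/+ CL library. Between genotypes (*Cort*-/- against *Cort*+/+) the log2 differences of *Slfn5* and *Samd9l* were -0.28 and -0.27 in CL hemispheres. They were 0.26 and 0.19 in MCAO hemispheres, and none of these passed. The difference of the hemisphere change between genotypes was 0.54 (95% interval -0.15 to 1.22, unadjusted p = 0.115) for *Slfn5* and 0.46 (95% interval -0.26 to 1.19, unadjusted p = 0.192) for *Samd9l*, with an adjusted p of 1.00 by limma for each.

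The remaining 9 members have varied or less settled roles, and all 9 rose in the mean comparison (median 1.47), 4 of 9 passing in *Cort*-/- mice. *Ifi27*, a small mitochondrial and nuclear membrane protein, was second in level, at 14.7, 15.8 and 14.2 RPKM in *Cort*+/+ CL, at 24.7, 30.0 and 18.4 RPKM in *Cort*+/+ MCAO, at 15.5, 15.9 and 16.5 RPKM in *Cort*-/- CL and at 34.5, 25.2, 20.6, 24.2 and 30.0 RPKM in *Cort*-/- MCAO hemispheres. No hemispheres overlapped in either genotype, and it rose by 0.70 on the log2 scale (SE 0.12, adjusted p = 0.00676) with nearly the same change in both genotypes (0.68 and 0.73). *Ifi27l2a*, the paralog that overlaps it on the opposite strand (chr12:103392254-103407799, plus, and chr12:103399975-103409950, minus, GRCm39), rose by 2.65 (SE 0.45, adjusted p = 0.0065). It was at 1.67, 0.999 and 0.521 RPKM and 5.71, 16.3 and 2.23 RPKM in *Cort*+/+ CL and MCAO, and at 0.940, 1.3 and 1.33 RPKM and 19.2, 4.57, 5.48, 7.09 and 15.3 RPKM in *Cort*-/- CL and MCAO hemispheres. The library kit keeps strand, but whether the counting used strand is not given in the sources used here, so reads of the overlap cannot be assigned with certainty. The same holds for *Parp9* and *Dtx3l*, whose ends overlap on chromosome 16.

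*Lgals3bp*, a secreted glycoprotein that binds galectin-3, was at 9.91, 6.54 and 5.92 RPKM and 18.2, 32.9 and 10.4 RPKM in *Cort*+/+ CL and MCAO, and at 6.67, 11.3 and 7.25 RPKM and 35.8, 21.3, 13.1, 31.6 and 32.9 RPKM in *Cort*-/- CL and MCAO hemispheres. It rose by 1.47 (SE 0.28, adjusted p = 0.0124), and no hemispheres overlapped in either genotype. *Ifi44*, *Phf11d*, *Rtp4*, *Epsti1*, *Xaf1* and *Ifi35* rose by 2.39, 2.12, 1.68, 1.21, 1.08 and 1.07. Over all members, the fitted change was larger in low than in abundant ones. The 12 members with a mean under 1 RPKM had a median log2 fold change of 1.97, against 1.3 in the 37 with a mean of at least 1 RPKM.

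The next question was whether the program differs between genotypes. In the CL hemispheres 21 of 49 members were higher and 28 lower in *Cort*-/- mice, with a median of -0.02 and no change above 0.43 in size. None passed by limma (0 of 49, also 0 at an unadjusted p under 0.05 and 0 by voom), against 0.0152% of all genes called in either direction. In the MCAO hemispheres all 49 members had a higher mean in *Cort*-/- mice, with a median of 0.49 (range 0.10 to 0.98) against 0.00 over all genes, but again 0 of 49 passed (0 at an unadjusted p under 0.05 and 0 by voom), against 0.0174% of all genes. Single members had a median SE of 0.42, and every 95% interval of a member included 0. For *Isg15* the difference was 0.81 (95% interval -0.71 to 2.33), for *Ifi204* 0.86 (-0.46 to 2.19) and for *Ifi27* 0.15 (-0.20 to 0.49). No member had all *Cort*-/- MCAO libraries above all *Cort*+/+ MCAO libraries (0 of 49, against 0.861% of all genes).

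**Figure D3:**
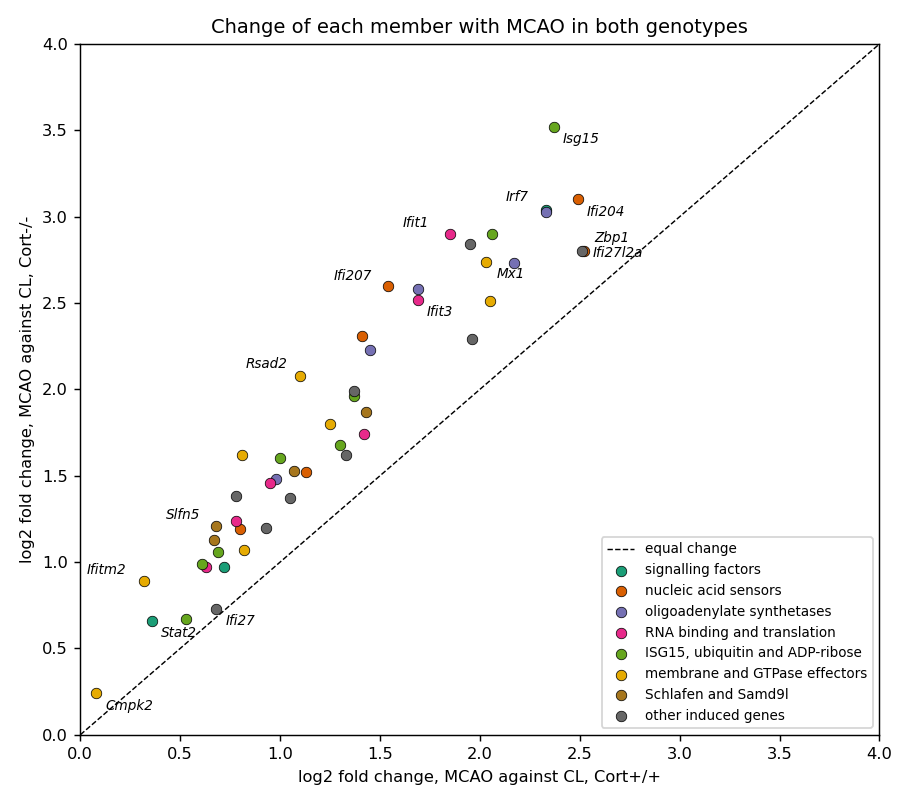
Log2 fold change of each member between MCAO and CL hemispheres, Cort+/+ on the horizontal and Cort-/- on the vertical axis, coloured by role. All 49 points lie above the dashed line of equal change and the order of the members is alike in both genotypes. Cmpk2 is lowest in both (0.08 and 0.24), while the highest is Zbp1 in Cort+/+ (2.52) and Isg15 in Cort-/- (3.52).

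The change with MCAO ranked the members alike in both genotypes, which share no libraries (Spearman's rho 0.96 over 49 members, a description across genes that are not independent replicates). The interaction, the difference between genotypes of the change with MCAO, was above 0 for 49 of 49 members with a median of 0.50, and single members had a median SE of 0.62. It passed for 0 of 49 (0 at an unadjusted p under 0.05 and 0 by voom), against 0.00217% of all genes. The largest value was that of *Isg15*, 1.15 (95% interval -1.13 to 3.43). Since every member follows the same few libraries, 49 equal signs are not 49 observations.

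That dependence on libraries can be read from the members directly. As the median over members of log2(RPKM + 0.1) minus the CL mean, *Cort*+/+ MCAO libraries 2, 3 and 4 stood at 0.94, 2.17 and 0.41. *Cort*-/- MCAO libraries 1 to 5 stood at 2.20, 1.46, 0.76, 2.07 and 2.10. The 6 CL libraries lay between -0.14 and 0.18. So 1 of 3 *Cort*+/+ and 3 of 5 *Cort*-/- libraries were above 2, and the spread within a genotype (SD 0.90 and 0.61) was larger than the difference of the group means (1.17 and 1.72). *Cort*+/+ MCAO 4 held the lowest MCAO value for 37 of 49 members and *Cort*-/- MCAO 3 for 10. The highest value was in *Cort*+/+ MCAO 3 for 15 members and in *Cort*-/- MCAO 1, 5 and 4 for 14, 12 and 8.

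The libraries were also read singly against all 6 CL libraries. In *Cort*+/+ MCAO 4 the level exceeded that of every CL library for 31 of 49 members, against 17% of all genes tested. In *Cort*-/- MCAO 3 it did so for 41 (15.5% of all genes) and in *Cort*+/+ MCAO 2 for 47 (15.5%). In each of the other 5 MCAO libraries it did so for 49, against 14% to 18.7% of all genes. Between the highest and the lowest MCAO library a member differed by a median of 4.27-fold, from 1.28-fold to 13.8-fold. The genotype difference moved with single MCAO libraries, most with *Cort*+/+ MCAO 3 and 4. Replicates 1 and 5 of that group are not among those analysed. Without *Cort*+/+ MCAO 4 the median difference between genotypes in the MCAO hemispheres was 0.13, with 42 of 49 members higher in *Cort*-/- mice. Without *Cort*+/+ MCAO 3 it was 1.04 with 49 of 49 higher, 41 of them at an unadjusted p under 0.05 (2.41% of all genes) and 0 after adjustment. The interaction median was 0.14 and 0.99 without these libraries, and without *Cort*-/- MCAO 3 the genotype difference was 0.78, with 20 of 49 members at an unadjusted p under 0.05 (2.43% of all genes) and 0 after adjustment.

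**Figure D4:**
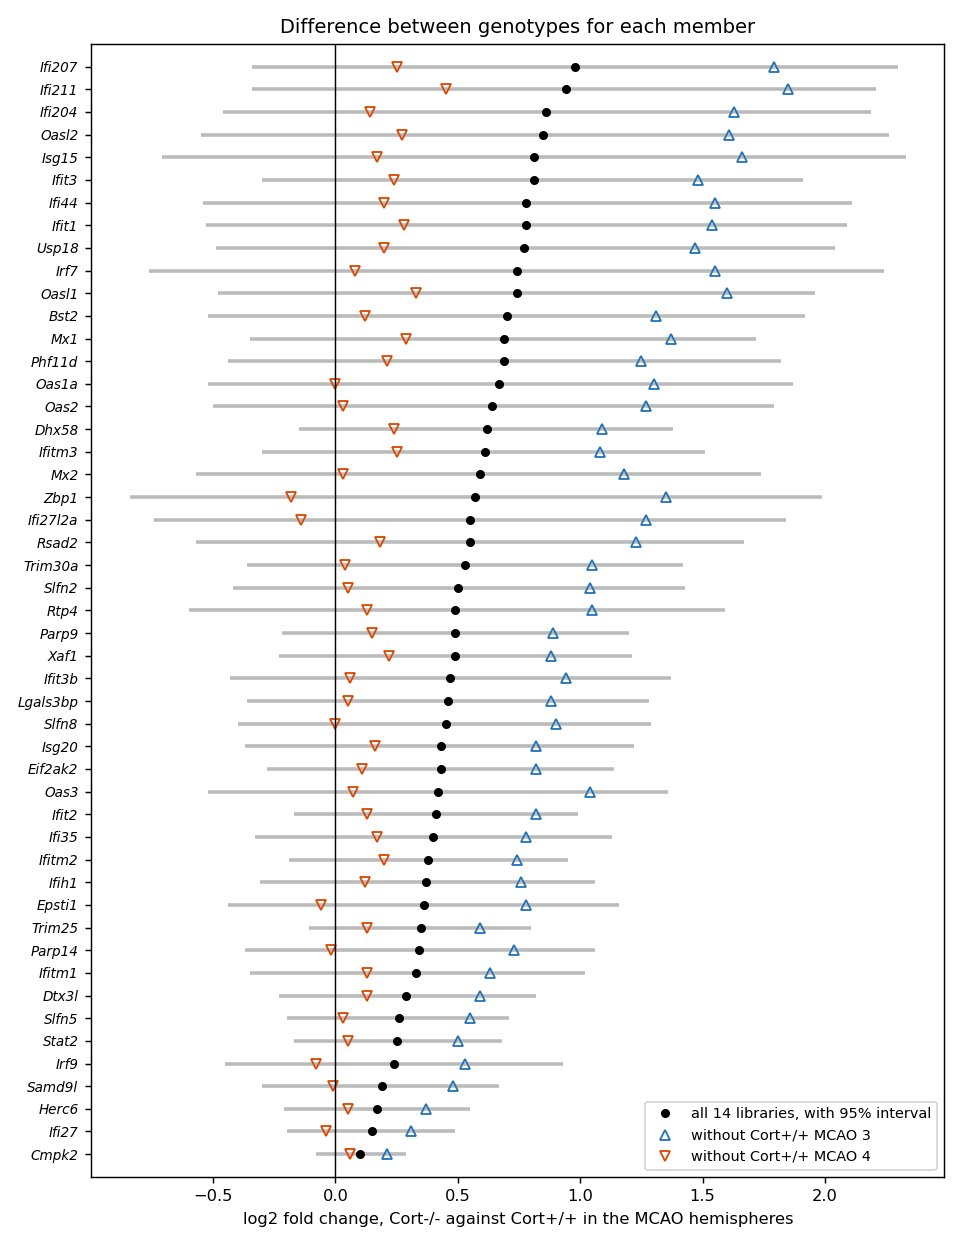
Log2 fold change between Cort-/- and Cort+/+ MCAO hemispheres for each member, with its 95% interval (grey) and the values without Cort+/+ MCAO 3 (upward triangles) or without Cort+/+ MCAO 4 (downward triangles). Every interval includes 0, and leaving out a single Cort+/+ library moves the median of the members from 0.49 to 1.04 or 0.13.

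Marker genes of some cell types also differed between the hemispheres, and in whole hemispheres more cells of a type and more RNA per cell cannot be told apart. The 8 microglia markers were all higher in the mean comparison and 6 of 8 rose. Their summed level was 99.5 to 115 RPKM in the CL libraries, 190, 201 and 131 RPKM in *Cort*+/+ MCAO 2, 3 and 4, and 221, 175, 149, 204 and 197 RPKM in *Cort*-/- MCAO 1 to 5. The MCAO libraries lowest in members, *Cort*+/+ MCAO 4 and *Cort*-/- MCAO 3, were also lowest in microglia markers and in recovered depth. Monocyte and macrophage markers (8 of 8 higher, 2 of 8 rose) summed to 17, 30.1 and 11.2 RPKM in the *Cort*+/+ MCAO and to 58.4, 18.1, 17.5, 31.5 and 22.3 RPKM in the *Cort*-/- MCAO libraries, against 4.64 to 15.4 RPKM in the CL libraries, with no marker at 0 in every library of a group.

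Markers of striatal neurons, which lie in the territory of the occluded artery, went the other way. All 6 fell in the mean comparison and in *Cort*-/- mice. Their sum was 221 to 265 RPKM in the CL libraries, 142, 118 and 198 RPKM in the *Cort*+/+ MCAO libraries and 93.1, 127, 145, 129 and 144 RPKM in the *Cort*-/- MCAO libraries. *Cort*+/+ MCAO 4, lowest in members, was nearest to the CL level here. Of the other lists, 3 of 7 astrocyte, 2 of 8 endothelial and 1 of 7 neutrophil markers rose in the mean comparison and 1 of 8 T and NK cell markers fell. None was called among B cell (4), oligodendrocyte (6), general neuron (7), choroid plexus (5) and red blood cell (5) markers. B cell markers summed to at most 0.842 RPKM and T and NK cell markers to at most 4.92 RPKM, and *Cd3g* was at 0 in every *Cort*+/+ CL library and *Nkg7* and *Ms4a1* in every *Cort*-/- CL library. Between genotypes in the MCAO hemispheres, monocyte and macrophage markers were higher in *Cort*-/- mice for 8 of 8 (median log2 fold change 0.64). Neutrophil markers were higher for 7 of 7 (median 0.38) and microglia markers for 6 of 8 (median 0.12). Striatal neuron markers were lower for 6 of 6 (median -0.31), and none of these markers passed between genotypes. The part of cell composition in the level of the members was not tested.

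**Figure D5:**
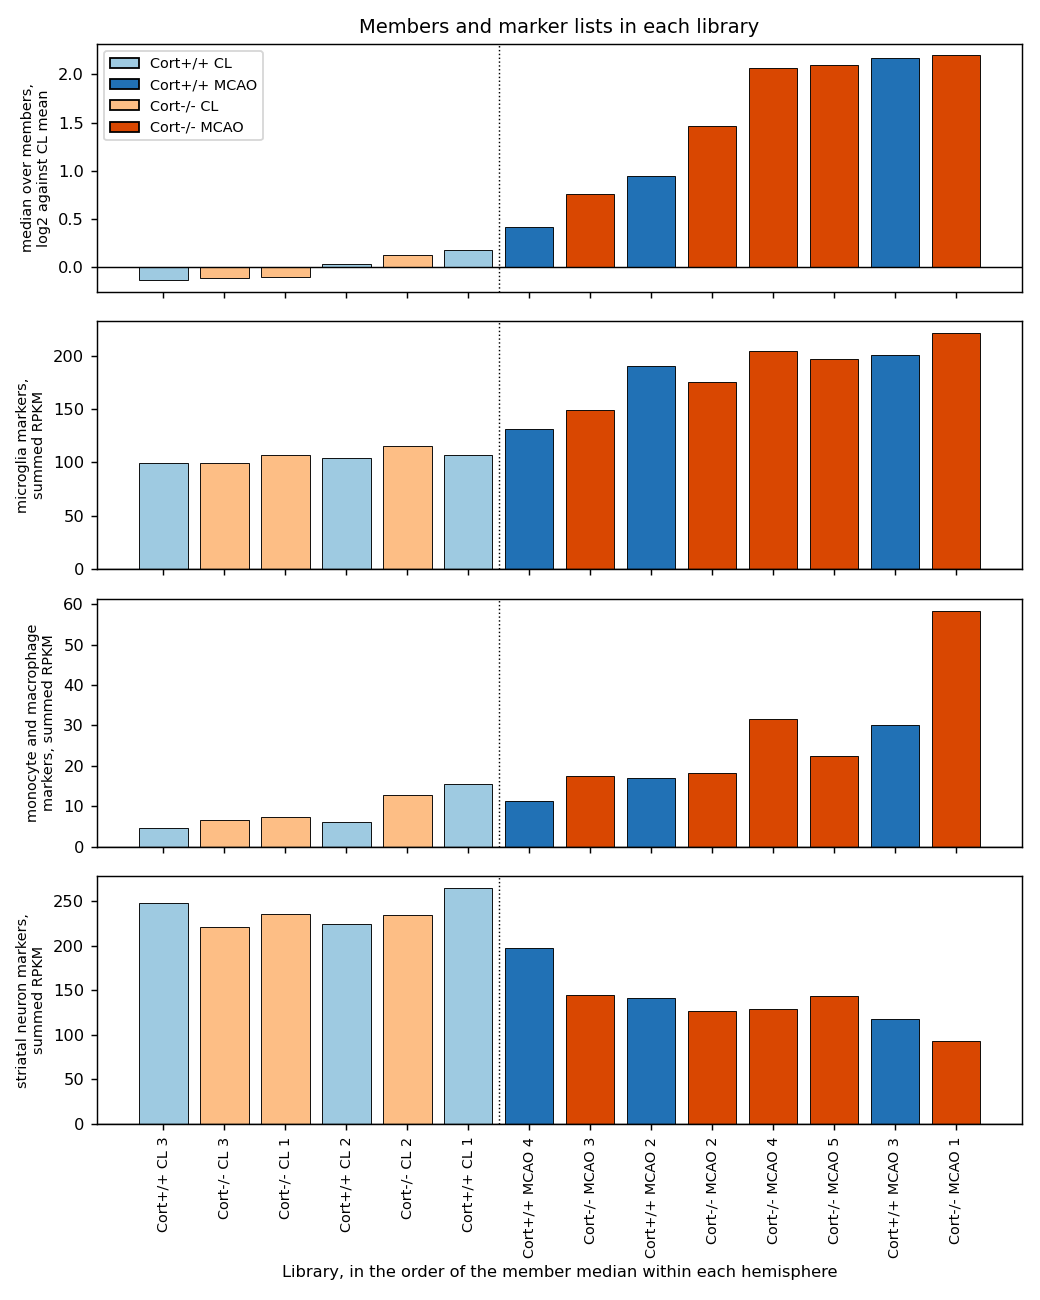
The top panel gives the median over the 49 members in each library relative to the CL mean (log2), and the lower panels the summed RPKM of microglia, monocyte and macrophage, and striatal neuron markers in the same libraries, ordered by the member median within each hemisphere. Between the MCAO libraries lowest and highest in members, Cort+/+ MCAO 4 and Cort-/- MCAO 1, microglia markers go from 131 to 221 RPKM and striatal markers from 198 to 93.1 RPKM, with the libraries between them not strictly in order.

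The rest of the pathway was then read from lists of other genes. Of 20 interferon genes only 8 were listed in the table and 6 passed the filter, and none was called in any of the 6 comparisons. None had more than 3 reads in a library. *Ifnb1* had 1 read in 1 of 14 libraries and *Ifng* 1 read in each of 3 libraries, and counts this low allow no comparison between groups.

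Receptors, kinases and STATs were read next, and none of them passed in *Cort*+/+ mice. The receptor subunit genes *Ifnar2* and *Il10rb* rose in the mean comparison, by 0.33 (adjusted p = 0.0128) and 0.58 (adjusted p = 0.00652), with group means between 4.64 and 6.24 RPKM for *Ifnar2* and between 3.83 and 6.29 RPKM for *Il10rb*. *Jak1* (35.3 to 36.7 RPKM by group) and *Stat3* were the most abundant of this list, and neither passed (adjusted p = 0.917 and 0.0616).

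Of 16 inducing sensors, adaptors and IRFs, 7 rose in the mean comparison, 3 in *Cort*-/- and 0 in *Cort*+/+ mice. *Rigi*, the RNA sensor RIG-I, rose by 1.35 (adjusted p = 0.0145), from 0.927 to 1.27 RPKM in the CL libraries to 1.42 to 4.66 RPKM in the MCAO libraries. The myeloid factor *Irf8* rose by 1.1 (adjusted p = 0.00481), *Sting1* by 0.87, *Irf5* by 0.80, the adaptor *Myd88* by 0.76, *Irf1* by 0.62 and *Mavs* by 0.28. *Tbk1* and *Irf3*, the most abundant of this list and the kinase and factor that start interferon transcription, had changes of -0.01 and 0.12 and did not pass. Of 9 negative regulators 2 rose in the mean comparison, *Ptpn6* (SHP-1) by 1.26 (adjusted p = 0.00475) and *Socs3* by 1.37 (adjusted p = 0.022). The abundant *Adar* and *Trex1* had changes of -0.05 and 0.31 and did not pass. Between genotypes and in the interaction 0 genes of these 4 lists passed by limma.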

How the data were processed

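The authors prepared stranded mRNA libraries, aligned reads to GRCm39 with reanalyzerGSE and deposited RPKM values per gene and library (read counts scaled by gene length and library size), without pooling replicates. The gene lengths behind them are not given in the sources used here. Whole reads were recovered for 100% of 495656 values above 0 (tolerance 0.01 reads). Replicates differed by 5.21 to 23.0 times sampling noise, so none was counted as a duplicate.

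Genes above 0 in at least 2 libraries were fitted with limma 3.58.1 (R 4.3.3) on log2(RPKM + 0.1), a model of 4 groups with trended variance, called at a Benjamini-Hochberg adjusted p under 0.05 over all genes. The step was tested on simulated data, and summaries were made in Python 3.11.15 with pandas 2.3.3. Limma p-values are two-sided. Positions come from GENCODE M39 and promoter windows from RefSeq.

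Members, role groups, lists and tests were chosen with earlier results of these data known. Values by library are given for the 2 most abundant members of each role group, the 6 of largest change and the 4 of lowest interaction p with a mean of at least 1 RPKM. Of the other lists, called genes and the 2 most abundant are named, except for an item that is not reported here.

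Alternatives were other pseudocounts and filters, median ratio scaling, limma voom on the recovered reads, library weights, only the groups compared, each library left out and a replicate block. On the recovered reads voom called 54 genes of either direction in *Cort*+/+ mice, 1415 in *Cort*-/- mice and 2172 in the mean, against 5, 792 and 1579 on the RPKM values.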

Additional observations from a re-analysis of the deposited data

How the results depend on the processing

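All members tested stayed higher with MCAO in both genotypes under each scaling, filter, pseudocount, weighting and voom, whereas counts of calls moved. A pseudocount of 1 RPKM lowered the medians to 0.63 in *Cort*+/+, 0.97 in *Cort*-/- mice and 0.79 in the mean. It lowered the calls in *Cort*-/- mice to 3, against 1.18% of all genes in either direction. A filter on a mean of at least 0.5 RPKM gave 38 there, against 7.38%. Voom, library weights and a pseudocount of 0.01 RPKM gave 34, 34 and 33, against 3.07%, 2.29% and 1.96%. Leaving out each library gave 0 to 45 calls in *Cort*-/- mice, against 0.291% to 2.61% of all genes in either direction. In the mean it gave 28 to 47, against 2.07% to 4.18%. Medians then were 0.66 to 1.61 in *Cort*+/+ mice, 0.13 to 1.04 for the genotype difference in MCAO hemispheres and 0.14 to 0.99 for the interaction. Calls in *Cort*+/+ mice, between genotypes and of the interaction were 0 under every alternative run, which for the genotype comparisons did not include the replicate block and for the interaction not the fit of only the groups compared. The cause was not tested.

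The replicate block used only 2 *Cort*+/+ and 3 *Cort*-/- pairs of the same number. Deviations of same-numbered hemispheres correlated at 0.316 and -0.141 in *Cort*+/+ and at -0.0645, -0.239 and 0.0271 in *Cort*-/- mice, so the numbers were not taken to pair the samples. With the block 0 of all 46102 genes were called in any comparison it could be run for, members included. The members' median was 1.6 in the mean (48 of 49 at an unadjusted p under 0.05), 1.39 in *Cort*-/- (43 of 49) and 1.72 in *Cort*+/+ mice (36 of 49), and the interaction median was -0.24 with 11 of 49 members above 0. Named members whose interaction turned with the block were *Ifi27l2a* (-0.93), *Ifi204* (-0.83), *Irf7* (-0.77), *Oas1a* (-0.68), *Lgals3bp* (-0.57), *Ifit3b* (-0.48), *Slfn2* (-0.44), *Ifitm3* and *Oasl2* (-0.38 each), *Ifit3* (-0.31), *Irf9* and *Isg15* (-0.28 each), *Usp18* (-0.15), *Ifi27* (-0.14), *Ifih1* and *Stat2* (-0.08 each).

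Leaving out a library turned the sign of some named members, none of them called. The interaction ranged from -0.40 to 1.01 for *Ifi27l2a*, -0.14 to 0.21 for *Ifi27*, -0.12 to 1.37 for *Ifi204*, -0.12 to 0.71 for *Lgals3bp*, -0.12 to 1.19 for *Oas1a*, -0.09 to 0.79 for *Ifit3b* and -0.06 to 0.54 for *Irf9*. The genotype difference in MCAO hemispheres ranged from -0.14 to 1.27 for *Ifi27l2a*, -0.08 to 0.53 for *Irf9*, -0.04 to 0.31 for *Ifi27* and -0.01 to 0.48 for *Samd9l*. In *Cort*+/+ mice the change with MCAO ranged from -0.03 to 0.14 for *Cmpk2* and -0.03 to 0.51 for *Ifitm2*. Values of members below 10 reads in CL libraries rest on few counts.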
